A study of Mus musculus with 14 samples.

Results

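Regions called by chromatin immunoprecipitation sequencing were described at the loci of Ezh2, Suz12, Eed and Ezh1, the core genes of Polycomb repressive complex 2. The loci were fixed as 4 windows of the mouse build mm9: chromosome 6 from 47460000 to 47570000 for Ezh2, chromosome 11 from 79780000 to 79870000 for Suz12, chromosome 7 from 97080000 to 97150000 for Eed and chromosome 11 from 101030000 to 101110000 for Ezh1. A region was a member when it shared 1 bp or more with a window. This gave 68 regions of the 201448 in all 11 lists. The study disrupted Ezh2 with Cas9 in mouse Group 3 medulloblastoma cells, a cerebellar tumour model driven by overexpressed Myc. The tumour cells were Cas9 controls, called the controls here, of genotype p53-/-;p18-/-, and knockouts of genotype p53-/-;p18-/- ;Ezh2-/-. Both were profiled for H3K27me3, H3K27ac and H3K4me3. Neurospheres, also p53-/-;p18-/-, had 3 lists from an antibody to Cas9 (U6, Suz12F1, Suz12F2) and 2 from an antibody to Gfi1 (Cas9, Suz12F2), named by their labels. The labels describe retroviral infection, sorting of RFP+/GFP+ cells, expansion and transplantation into the cortex of CD-1 nu/nu mice. They do not say at which stage chromatin was taken, whether the knockout is 1 clone, what U6, F1 and F2 stand for or which bases were edited. Region lists hold no expression values, so the cell type and the knockout were not checked against marker levels.

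Polycomb repressive complex 2 places methyl groups on lysine 27 of histone H3, and the trimethylated form, H3K27me3, marks silenced chromatin. Ezh2 and its paralogue Ezh1 are alternative catalytic subunits, Suz12 is the scaffold that holds the complex together, and Eed binds H3K27me3 and stimulates the enzyme. Ezh2 is typical of dividing cells, whereas Ezh1 is a weaker enzyme that is also present in resting cells and can act in the absence of Ezh2. H3K4me3 marks promoters, and H3K27ac marks promoters and enhancers in use.

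Each group had 1 library, so there is no replicate error and no test, and a difference between lists is a difference between those libraries. Read depth is unknown. A region is present when the authors called it, and a missing call does not show that a mark was absent. The score that the authors gave each region has no stated meaning and was used only to rank regions within a list. The H3K27me3 and antibody lists hold islands, which are runs of enriched 200 bp windows, and the H3K4me3 and H3K27ac lists hold narrow peaks. The tumour lists number their regions, and in the Ezh2 window 3 numbers are skipped in each H3K4me3 list above the last peak given here. Those regions, which may lie within or above the window, were not analysed here. No number was skipped at the other windows or marks.

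The promoters of the 4 genes are shown first, because active marks were called in all 4 windows and their letters show what the promoters do and do not share. They run 5′ to 3′ from 250 bases before the start to 30 bases after it, from RefSeq in build GRCm38.p6, whose positions cannot be set beside the mm9 positions used elsewhere. Ezh2 is at chr6:47595001-47595280 on the minus strand, Suz12 at chr11:79992856-79993135 on the plus strand, Eed at chr7:89980947-89981226 on the minus strand and Ezh1 at chr11:101226434-101226713 on the minus strand. Capitals mark matches on either strand to CCAAT, to GGGCGG (the GC box), to the palindrome CACGTG (the E-box that Myc binds) and to TTTCCCGC, TTTCGCGC, TTTGCCGC or TTTGGCGC (forms of the E2F motif).
Ezh2: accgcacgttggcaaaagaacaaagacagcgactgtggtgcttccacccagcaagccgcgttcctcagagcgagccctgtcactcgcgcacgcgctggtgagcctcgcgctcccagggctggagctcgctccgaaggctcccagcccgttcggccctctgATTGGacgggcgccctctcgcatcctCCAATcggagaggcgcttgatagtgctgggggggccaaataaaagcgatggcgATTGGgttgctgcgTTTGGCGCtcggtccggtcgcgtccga
Suz12: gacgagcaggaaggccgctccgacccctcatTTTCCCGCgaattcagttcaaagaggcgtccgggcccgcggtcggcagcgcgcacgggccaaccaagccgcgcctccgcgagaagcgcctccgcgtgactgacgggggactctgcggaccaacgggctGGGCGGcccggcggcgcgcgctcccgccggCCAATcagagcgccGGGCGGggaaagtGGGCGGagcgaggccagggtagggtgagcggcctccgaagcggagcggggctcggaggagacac
Eed: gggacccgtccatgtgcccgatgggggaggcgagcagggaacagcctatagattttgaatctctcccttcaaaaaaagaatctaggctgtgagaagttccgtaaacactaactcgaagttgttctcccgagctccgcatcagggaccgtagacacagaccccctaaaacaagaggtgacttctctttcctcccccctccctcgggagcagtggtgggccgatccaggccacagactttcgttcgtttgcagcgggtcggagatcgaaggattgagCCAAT
Ezh1: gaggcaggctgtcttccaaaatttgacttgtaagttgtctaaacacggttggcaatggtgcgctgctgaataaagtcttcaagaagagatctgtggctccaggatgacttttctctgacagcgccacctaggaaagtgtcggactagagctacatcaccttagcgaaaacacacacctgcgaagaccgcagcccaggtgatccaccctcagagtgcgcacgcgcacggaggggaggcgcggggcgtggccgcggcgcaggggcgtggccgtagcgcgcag

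An E2F motif was found in 2 of the 4 promoters. In Ezh2 it began at base 4 after the start and in Suz12 at 219 bases before it, and 2.12% of 32851 RefSeq promoters of the same length hold one. CCAAT was found at 3 places in Ezh2, at 1 in Suz12 and at 1 in Eed, against 36.1% of promoters with a match. The GC box was found at 3 places in Suz12 alone among the 4, against 34.7% of promoters. The E-box was in none of the 4, against 6.79% of promoters, and Ezh1 held no match to any of these motifs. These are matches of letters, not measured binding. The promoters also differed in CpG dinucleotides, with 41 in Suz12, 30 in Ezh2, 21 in Ezh1 and 15 in Eed, more than in 97.6%, 90.8%, 78.3% and 67.9% of promoters. Each form of the E2F motif holds a CpG, and the 2.12% was not matched for CpG content, so enrichment was not tested.

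Ezh2, Suz12 and Eed had regions of both active marks and none of H3K27me3. The exception is the Ezh1 window, where H3K27me3 was called in the controls, away from the gene's likely start. H3K4me3 and H3K27ac were called in all 4 windows in both kinds of tumour cell. H3K4me3 peaks in the windows numbered 11 for the controls and 12 for the knockout, and H3K27ac peaks 7 and 9. The whole lists held 14363 and 14417 H3K4me3 peaks, and 7951 and 10112 H3K27ac peaks, in the same order. H3K27me3 gave 1 region for the controls and 0 for the knockout. At Ezh2 the nearest H3K27me3 region outside the window lay 420 kb away in the controls and 397 kb away in the knockout. For Suz12 these distances were 95.2 and 108 kb, and for Eed 411 and 3919 kb. None of the 11 and 12 H3K4me3 peaks overlapped H3K27me3 of the same cells, against 12.5% of the whole H3K4me3 list in the controls and 2.05% in the knockout. The Wilson 95% intervals of these counts reach 25.9% and 24.2%, so they include both shares. Several of these peaks lie less than 1 kb apart and are not independent, so the intervals are too narrow. The knockout list of H3K27me3 is also shorter as a whole, with 5312 regions against 14107. It covers 18.6 Mb of the genome, against 71.4 Mb in the controls. The share of windows of this size that hold H3K27me3 was not counted. Its absence at Ezh2, Suz12 and Eed is therefore not read as particular to these genes.

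**Figure D1:**
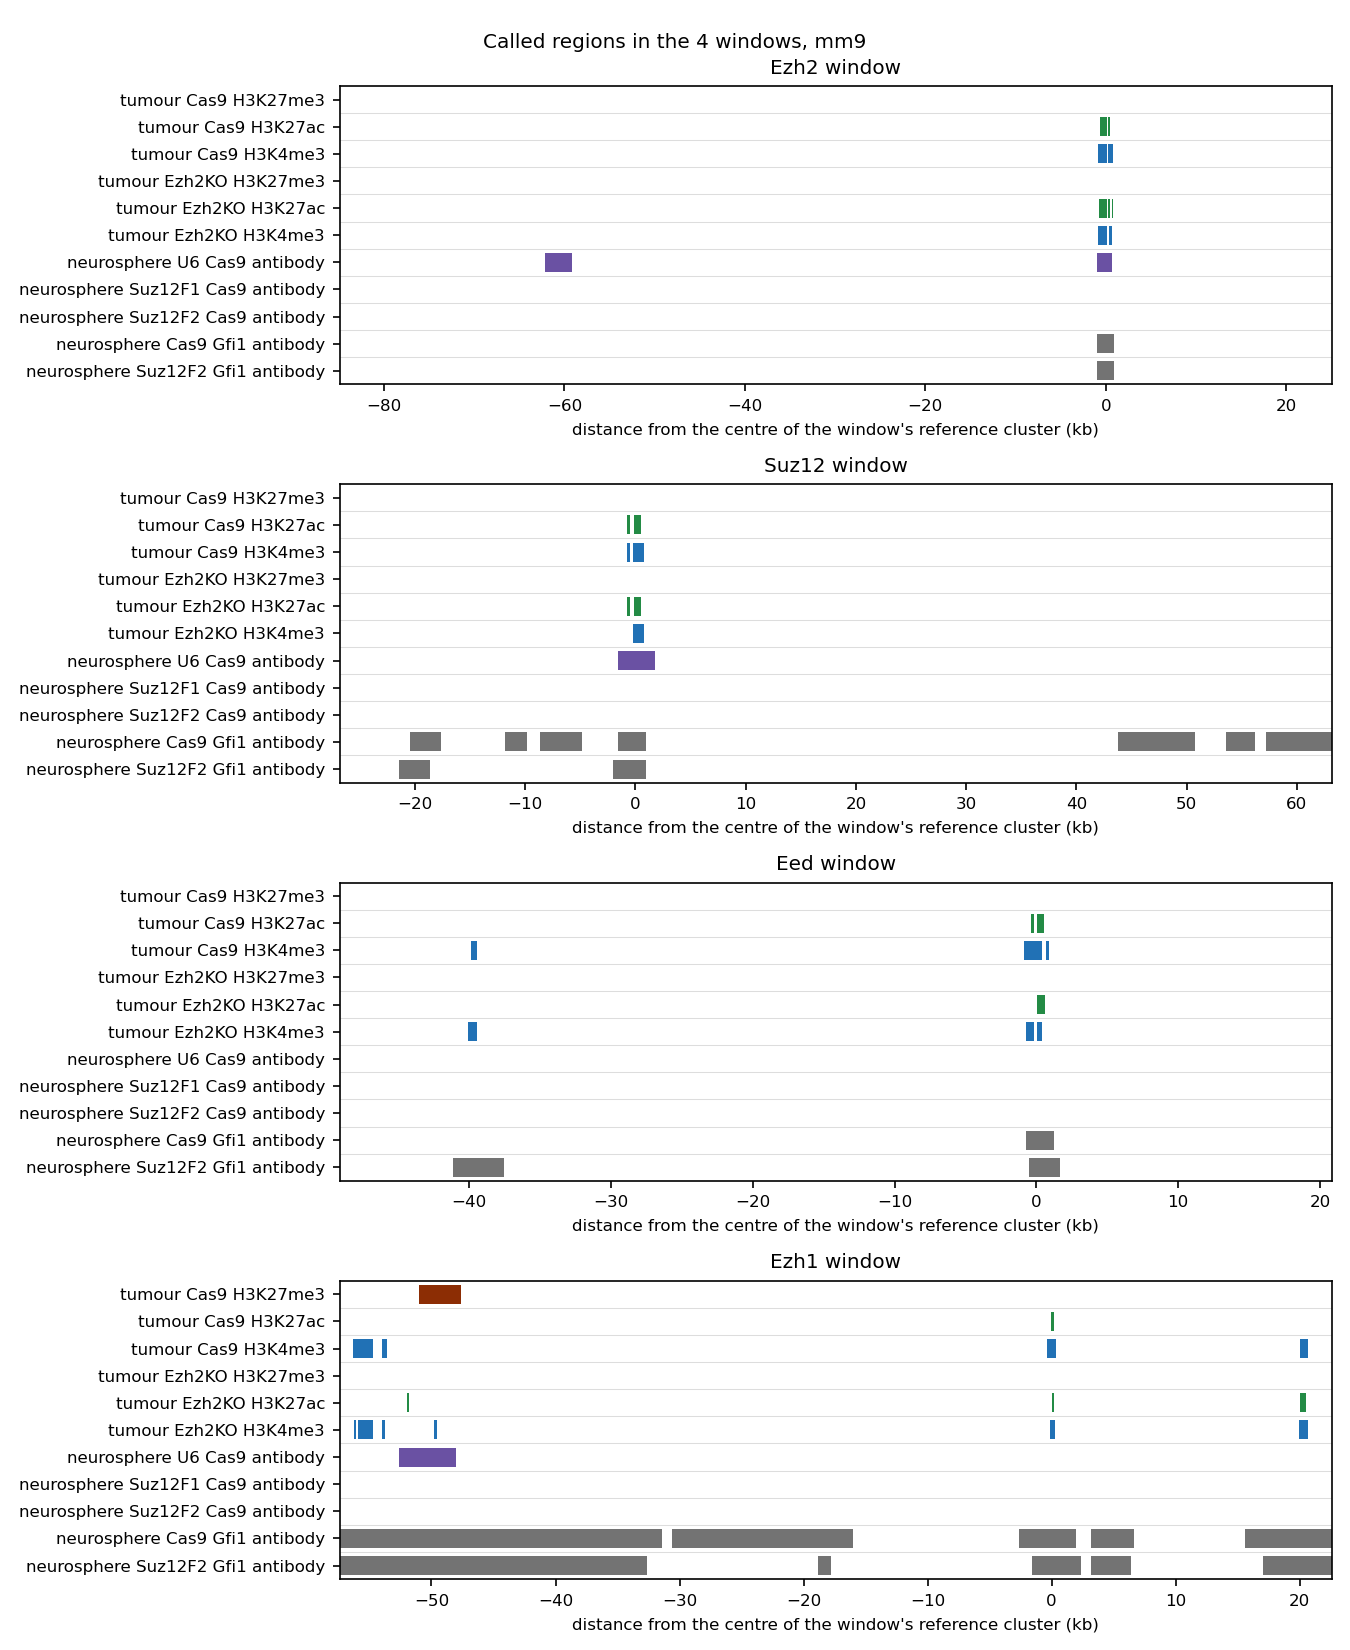
Regions called in each window, drawn to scale as bars by list (rows), against distance in kb from the centre of the window's reference cluster, the tumour Cas9 lists being the controls. The only H3K27me3 bar is that of the controls in the Ezh1 window, and the Cas9 antibody bars come from the list labelled U6 alone.

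Tumour H3K4me3 and H3K27ac peaks less than 1 kb apart were joined into clusters, 9 in all: 1 at Ezh2, 1 at Suz12, 2 at Eed and 5 at Ezh1. In each window 1 cluster had both marks in both kinds of cell, and this reference cluster is described as the likely start of the gene. It was chosen by those marks after the regions had been seen, so that both marks lie there in both kinds of cell is part of its definition and no finding. A gene annotation in mm9 was not used here, so that assignment rests on spacing and order at Eed and Ezh1. At Ezh2 and Suz12 it rests only on the cluster being the single one among the peaks analysed in the window. The skipped H3K4me3 regions at Ezh2 could add clusters there if they lie within the window. The 2 clusters at Eed were centred 39.8 kb apart, and the starts of Eed and its neighbour Hikeshi lie 39.8 kb apart in GRCm38.p6, Hikeshi being the lower. The reference cluster at Ezh1 was centred 54.9 kb above the first cluster of its window, and the start of Ezh1 lies 55.1 to 55.2 kb above the starts of Plekhh3. Distances were compared, and no position was moved between builds. At Ezh2 the neighbour F830010H11Rik, a long noncoding RNA, starts 179 bp away on the other strand, so peaks there could belong to either gene.

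Ezh2, the edited gene, had H3K4me3 and H3K27ac in the knockout at the same place as in the controls. Its cluster ran from 47544066 to 47545761 on chromosome 6. H3K4me3 was called there as 2 peaks in the controls, of 984 and 501 bp, and as 2 in the knockout, of 972 and 392 bp. The lower peak had the higher score in both lists, above 71.3% of the list in the controls and 70.9% in the knockout. The upper peak scored above 24.8% and 2.83%. The gap between the peaks was 124 bp in the controls and 232 bp in the knockout.

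H3K27ac at Ezh2 followed the same layout. The controls had peaks of 794 and 228 bp separated by 125 bp, and the knockout had peaks of 826 and 239 bp separated by 134 bp. The edges of these shared peaks differed by 3 to 55 bp between the kinds of cell. The larger peak ranked above 87.2% of H3K27ac peaks in the controls and above 86.3% in the knockout, the highest-ranked H3K27ac in any of the windows in both lists. The knockout had a further peak from 47545592 to 47545761, of 170 bp, which is the shortest length in that list, with a score above 5.34% of it. These calls come from the whole cell population and say nothing of the sequence of the Ezh2 transcript or of Ezh2 protein.

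Suz12, the scaffold subunit, had the H3K4me3 peak that ranked highest among the windows in either kind of cell. The peak ran from 79806606 to 79807632 on chromosome 11 in the controls and from 79806628 to 79807562 in the knockout, 1027 and 935 bp long. It scored above 93.1% of the list in the controls and 85.2% in the knockout. A second H3K4me3 peak of 242 bp, from 79806050 to 79806291, was called in the controls alone, with a score above 24.8% of its list. H3K27ac was called at that place in both, with 277 bp in the controls and 285 bp in the knockout. H3K27ac at the main peak measured 641 and 613 bp, and its upper ends were 1 bp apart. H3K27ac thus had 2 peaks in each kind of cell, while H3K4me3 had 2 in the controls and 1 in the knockout.

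Eed, the subunit that reads H3K27me3, had its reference cluster from 97128271 to 97130019 on chromosome 7. H3K4me3 was called there in the controls as a peak of 1239 bp and a small one of 219 bp, and in the knockout as peaks of 603 and 346 bp. Both knockout peaks overlapped the long control peak, the second passing its end by 37 bp, with a gap of 192 bp between them, and the small control peak was not called in the knockout. H3K27ac was called as 220 and 544 bp in the controls and as 552 bp in the knockout, where the smaller peak was missing. The shared H3K27ac peak scored above 69.6% of the list in the controls and 56.7% in the knockout.

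The other cluster of the Eed window, from 97089032 to 97089694, corresponds by order and spacing to Hikeshi, a heat-shock nuclear import factor. It had H3K4me3 in both kinds of cell, 466 bp in the controls and 653 bp in the knockout. H3K27ac was not called there in either. Among the peaks with 1 partner in each kind of cell, this was the H3K4me3 peak of the windows that was longest in the knockout relative to the controls, at 1.40 times the length, with a score above 67.5% of the list in the controls and 43.2% in the knockout.

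**Figure D2:**
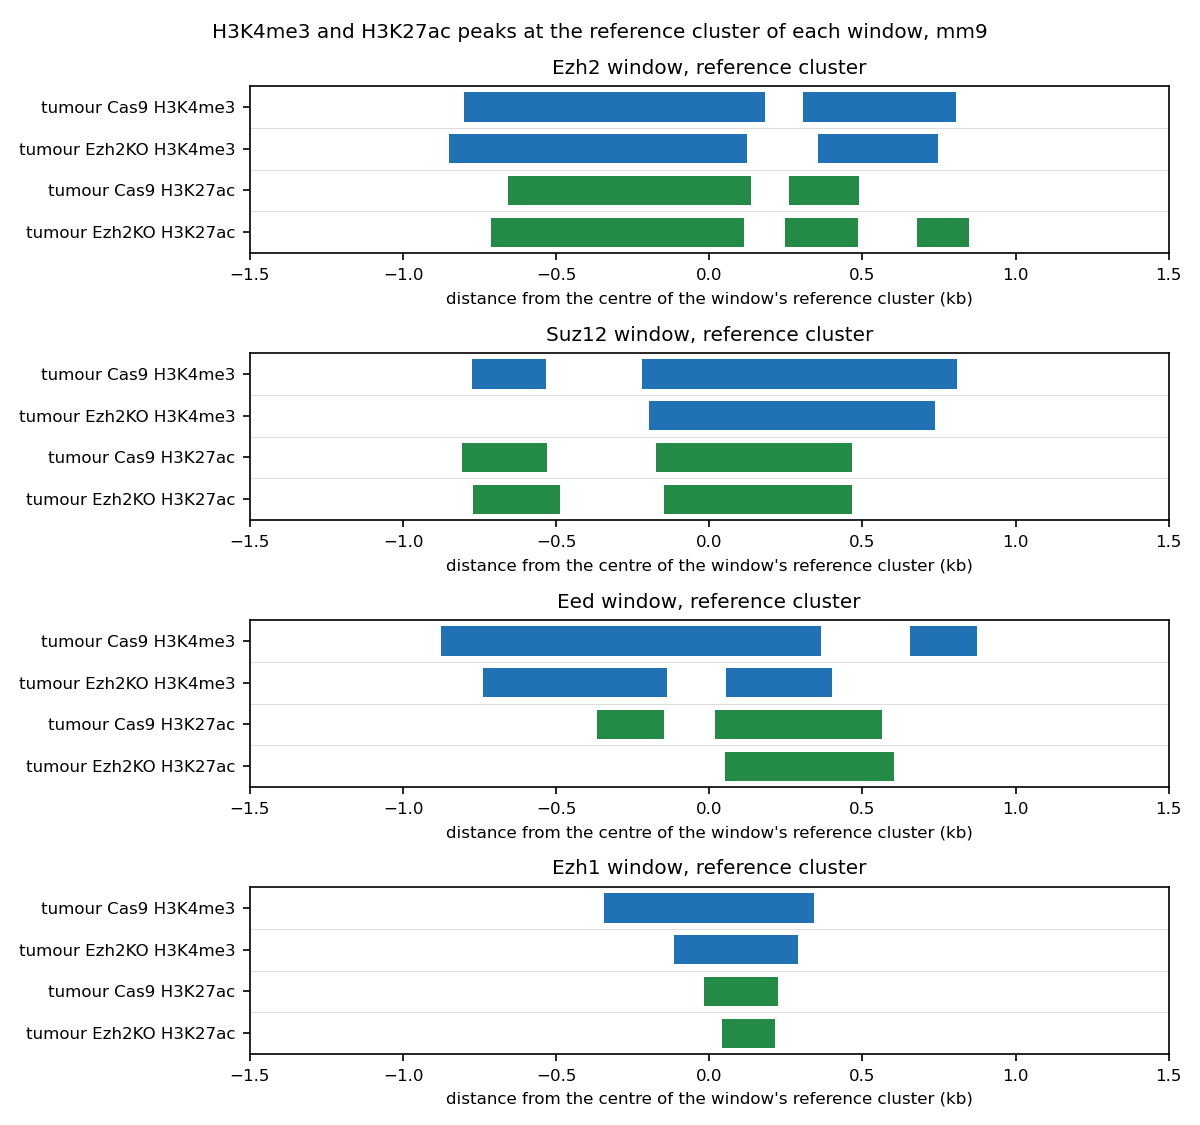
H3K4me3 (blue) and H3K27ac (green) peaks of control and knockout tumour cells at the reference cluster of each window, to scale, against distance in kb from its centre. At Ezh2 the 984 and 972 bp H3K4me3 peaks nearly coincide, at Suz12 and Eed a small H3K4me3 peak is called in the controls alone, and at Ezh1 both marks are shorter in the knockout.

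The Ezh1 window, that of the paralogue, held 6 H3K4me3 and 3 H3K27ac peaks in the knockout, and 1 of each lay at its reference cluster. That cluster ran from 101087056 to 101087740 on chromosome 11. H3K4me3 measured 685 bp in the controls and 406 bp in the knockout, and scored above 71.3% and 60.3% of the lists. H3K27ac measured 241 bp in the controls and 171 bp in the knockout, and scored above 17.3% and 3.66%. In the controls this H3K27ac score was tied as the lowest in the windows with the smaller Suz12 peak. Both marks were shorter in the knockout, and the knockout peaks lay wholly within the control peaks. The H3K27ac peak of the knockout ranked 9573 of 10112, and it is lost when the upper 50% of scores, or equal numbers by score, are kept.

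The other active peaks of the Ezh1 window lay at 4 clusters, of which 2 held peaks of the knockout alone. The highest, from 101107344 to 101108044, lies 20.3 kb above the reference cluster, on the side of Ramp2, a receptor-modifying protein, which follows Ezh1 in the gene order. Its H3K4me3 peak was 627 bp in the controls and 701 bp in the knockout, and H3K27ac of 510 bp was called in the knockout alone, with a score above 34.6% of its list. The lowest cluster, from 101031087 to 101033814, had H3K4me3 peaks of 1613 and 389 bp in the controls and of 196, 1171 and 224 bp in the knockout, with no H3K27ac in either. The 1613 bp peak was longer than 96.5% of its list, the broadest in the windows, and its spacing is that of Plekhh3.

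The only H3K27me3 region of the windows lay between these clusters, and small active peaks were called beside and inside its place in the knockout. In the controls it ran from 101036401 to 101039800, 3400 bp long, with a score above 56.3% of the list. Its upper end lay 47.3 kb below the reference cluster of Ezh1, on the side where Cntnap1 and Ccr10 lie in the gene order. Another control region, from 101122001 to 101124000, lay outside the window and nearer, 34.3 kb above the reference cluster. No H3K27me3 was called in the knockout closer than 495 kb to the window. Of the whole H3K27me3 list of the controls, 88.1% had no overlapping region in the knockout, so the missing call at this region is the usual case.

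An H3K4me3 peak of the knockout alone, from 101037632 to 101037811, lay inside the place of the control H3K27me3 region. It was 180 bp long, the shortest length in its list, which 3.36% of the list shares, and its score was above 2.83% of the list. An H3K27ac peak of the knockout alone, from 101035426 to 101035599, ended 801 bp before that region, with 174 bp and a score above 2.26% of its list. Of all H3K27me3 regions of the controls, 3.96% held an H3K4me3 peak of the knockout alone. Both peaks rank near the floor of their lists.

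**Figure D3:**
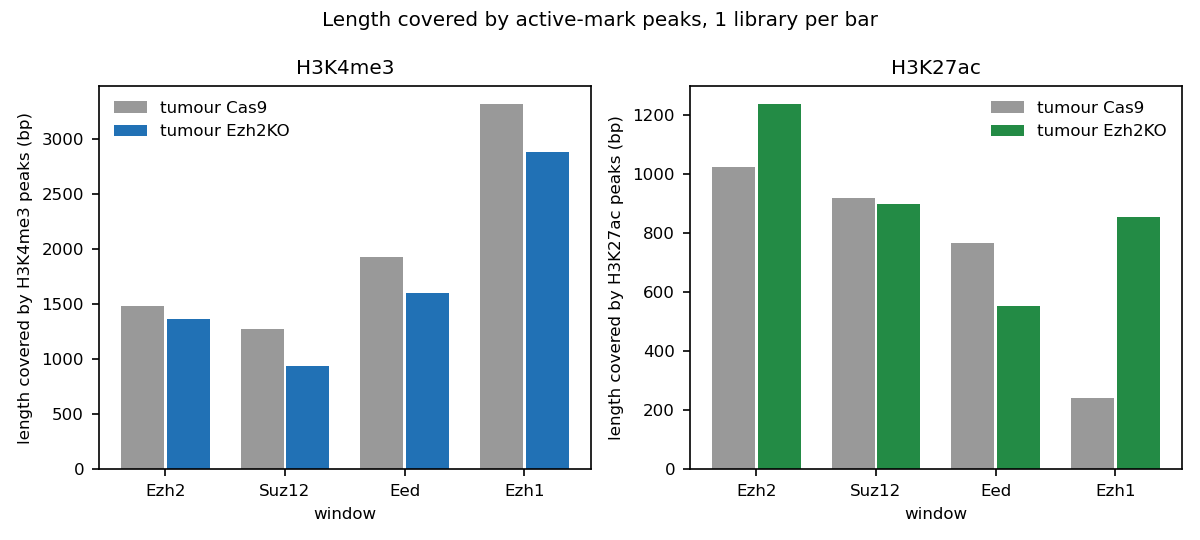
Length covered by H3K4me3 and H3K27ac peaks in each window in bp, with 1 library per bar and no error. H3K4me3 is shorter in the knockout in all 4 windows, for example 1485 against 1364 bp at Ezh2, while H3K27ac is longer at Ezh2 and in the Ezh1 window and shorter at Suz12 and Eed.

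Across the windows, H3K4me3 covered less in the knockout, and H3K27ac showed no common direction. H3K4me3 covered 1485, 1269, 1924 and 3314 bp at Ezh2, Suz12, Eed and Ezh1 in the controls, and 1364, 935, 1602 and 2878 bp in the knockout. H3K27ac covered 1022, 918, 764 and 241 bp in the controls, and 1235, 898, 552 and 855 bp in the knockout. The larger H3K27ac length in the Ezh1 window of the knockout lay at its other clusters, since the reference cluster had 241 bp in the controls and 171 bp in the knockout. At Ezh2 the knockout length includes the further peak of 170 bp, the shortest length in that list. The whole H3K4me3 lists covered 9.74 Mb in the controls and 8.57 Mb in the knockout, and the H3K27ac lists 3.64 and 4.67 Mb. Among H3K4me3 peaks with 1 partner in each kind of cell, 5 of 7 in the windows were shorter in the knockout, against 68.5% of 10175 in the whole lists. Their median length ratio, knockout over controls, was 0.910, and that of the lists was 0.901. For H3K27ac, 2 of 6 were shorter, against 38.9% of 6704, with a median ratio of 1.02 against 1.05. The members' shares and ratios thus lie near those of the whole lists.

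The share of peaks called in both kinds of cell was also near that of the lists. In the windows 9 of 11 H3K4me3 peaks of the controls were overlapped in the knockout, against 85.4% of the list, and 11 of 12 knockout peaks in the controls, against 90.2%. For H3K27ac it was 6 of 7 against 91.4%, and 6 of 9 against 71.9%. The Wilson 95% intervals of these 4 shares in the windows were 52.3 to 94.9%, 64.6 to 98.5%, 48.7 to 97.4% and 35.4 to 87.9%, for counting error only. Peaks of the same cluster are not independent, so these intervals are too narrow. H3K27ac lay at 6 of 11 H3K4me3 peaks in the controls and 6 of 12 in the knockout, against 49.5% and 61.9% of the lists. Of the 5 H3K4me3 peaks without H3K27ac in the controls, 1 had it in the knockout, the peak on the Ramp2 side of Ezh1, against 28.4% of such peaks in the list.

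With the antibody to Cas9, the nuclease used for editing, no region was called at Suz12 in either list labelled with that gene, while the U6 list had one. In U6 cells a region of 3400 bp, from 79805201 to 79808600, covered the whole Suz12 cluster and ranked 109 of 2966 by score. The nearest region of Suz12F1 lay 256 kb from the window and that of Suz12F2 244 kb. The U6 list is also the longest, since Suz12F1 held 916 regions and Suz12F2 1048, and depth is unknown. Of all H3K4me3 peaks of the tumour controls, 0.0557% lay in Suz12F1 regions, 6.39% in Suz12F2 regions and 13.2% in U6 regions. A missing call at an H3K4me3 peak is thus the usual case in each of these lists. The only neurosphere input is labelled U6, and the labels do not say which input served which list. Whether guides in the cells labelled Suz12 matched the mm9 sequence at this place was not tested, because guide sequences were not used here.

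U6 regions lay in 2 of the other windows, and Suz12F1 and Suz12F2 regions in none. At Ezh2 the U6 list had a region of 1600 bp over the cluster, from 47544001 to 47545600, and another of 3000 bp from 47482801 to 47485800, where no other list had a region. Both scored above 23.3% of the list. In the Ezh1 window a region of 4600 bp, from 101034801 to 101039400, ranked 72 of 2966 and shared 3000 bp with the H3K27me3 region of the tumour controls. It also covered the H3K27ac and the H3K4me3 peak found in the knockout alone, and did not reach the reference cluster of Ezh1. How many H3K27me3 regions, or peaks of the knockout alone, lie in U6 regions over the whole lists was not counted. Whether these overlaps are particular to this place was therefore not tested. Of the 11 H3K4me3 peaks of the tumour controls, 4 lay in U6 regions, against 13.2% of the list, and none in Suz12F1 or Suz12F2 regions, against 0.0557% and 6.39%. These 4 are the peaks at Ezh2 and Suz12, which share 2 U6 regions and are not independent.

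The Gfi1 antibody, against a transcriptional repressor, gave regions overlapping all 4 reference clusters in both neurosphere lists, as it did most H3K4me3 peaks of the tumour controls. Gfi1 regions overlapped 10 of 11 H3K4me3 peaks of the tumour controls in the Cas9 list and 11 of 11 in the Suz12F2 list, against 86.4% and 97.5% of all H3K4me3 peaks. The peak missed in the Cas9 list was that on the Hikeshi side of Eed, where a region of 3600 bp was called in the Suz12F2 list. At Ezh2 both lists gave the same region, from 47544001 to 47545800. Its score was above 37.0% of the Cas9 list and 77.4% of the Suz12F2 list. At the reference cluster of Eed a region of 2000 bp was called in the Cas9 list and 1 of 2200 bp in the Suz12F2 list.

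The windows differed in how much of them the Gfi1 lists covered. At Ezh2 the covered share of the window was 1.64% in both lists, and at Eed 2.86% in the Cas9 list and 8.29% in the Suz12F2 list. Over the genome the Cas9 list covered 368 Mb in 63177 regions and the Suz12F2 list 294 Mb in 67079. At Suz12 the covered share was 29.8% in the Cas9 list, in 7 regions, and 6.44% in the Suz12F2 list, in 2 regions. The 7 were 2000 to 7000 bp long, and the highest-scoring, from 79864001 to 79870600, reached past the upper end of the window. Of the 7, 5 had no partner in the Suz12F2 list, and the region at the Suz12 cluster itself, 2600 bp long, was covered whole by one of 3000 bp. The other Suz12F2 region of that window, from 79785401 to 79788200, was 2800 bp long. Over the 4 windows 5 of 14 regions of the Cas9 list had no partner, against 23.9% of that list, and 1 of 10 of the Suz12F2 list, against 18.6%. At Ezh1 the covered share was 69.5% in the Cas9 list and 48.3% in the Suz12F2 list. The longest region of the Ezh1 window in both lists was an island at lower positions than the reference cluster, from 101019401 to 101056000 in the Cas9 list and from 101021401 to 101054800 in the Suz12F2 list. It ranked 289 of 63177 and 161 of 67079 and contained the H3K27me3 region of the tumour controls and the 3 lowest clusters. The share of all H3K27me3 regions that lie in Gfi1 regions was not counted. At the reference cluster of Ezh1 the Gfi1 regions were 4600 and 4000 bp long, in the order Cas9 and Suz12F2. The other Gfi1 regions of that window measured 14600 and 1000 bp between the island and the cluster, 3400 and 3200 bp just above the cluster, and 7600 and 6000 bp over the cluster on the Ramp2 side.

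**Figure D4:**
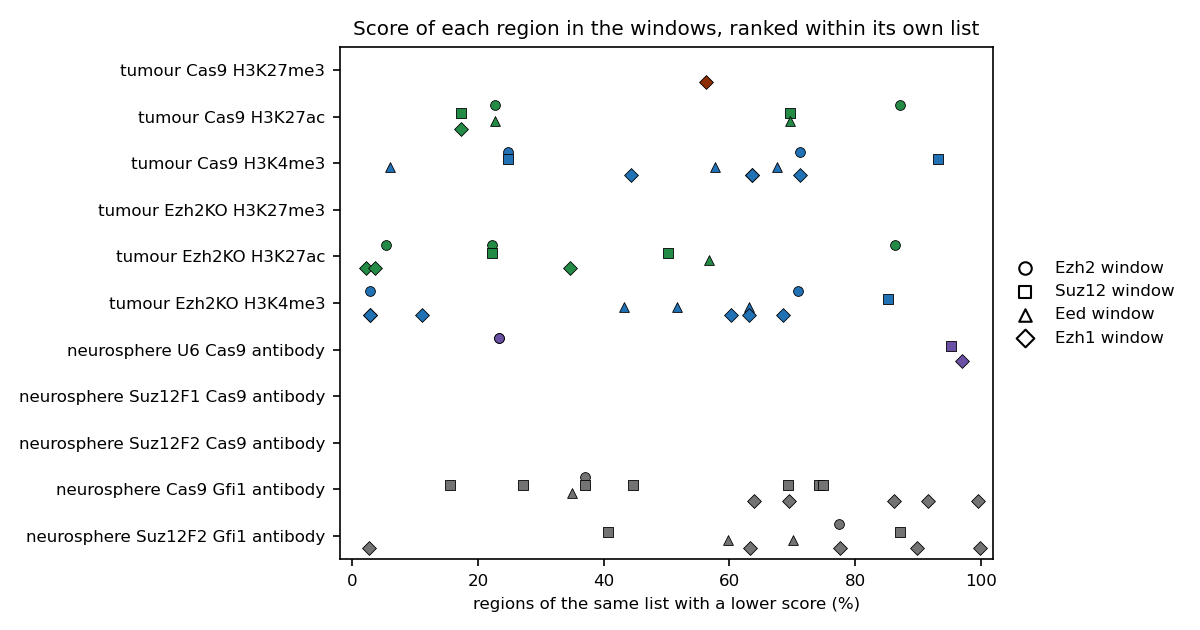
Score rank of each of the 68 regions within its own list, as the percentage of regions in that list with a lower score (x axis), by list (rows) and window (marker shape). Suz12 has the highest H3K4me3 rank in both tumour lists, Ezh2 the highest H3K27ac rank, and the Ezh1 window the highest Gfi1 ranks. Ranks of different lists are not comparable.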

How the data were processed

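Chromatin immunoprecipitation was sequenced for 14 libraries, 8 from tumour cells and 6 from neurospheres, and 11 lists of called regions were analysed. The 3 input libraries were not used here. The build is mm9, per the submitters' processing notes, which also name SICER 1.1, BWA 0.5.9-r26, R 2.14.0, SAMtools and Picard without roles. The names the authors gave the 7 island lists state a false discovery rate of 0.00001, windows of 200 bp and gaps of 600 bp. For the 4 peak lists the sources used here name no caller. The deposited score of each region has no stated meaning. Island ends were moved by 1 bp, since the grid shows that they name the last base from 0. Positions are 1-based.

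Overlaps of 1 bp or more were counted with Python 3.11.15, and shares were given Wilson 95% intervals with scipy 1.17.1. Counts for 110 list pairs were checked against bedtools 2.31.1, and 0 differed. Of 88 artificial regions planted to overlap the windows, 88 were found. All 4 genes were named, with every region where a list had 5 or fewer in a window. The windows, the genes and the comparisons were chosen with earlier results of these data known. Other Polycomb genes were not analysed here, since no mm9 annotation was used. Alternatives were 50% of a region in the window, windows wider by 50 kb on each side, the upper 50% of scores, equal numbers by score, 50% of a region shared, and removal of Cas9 antibody regions. Joining of peaks within 1 kb, its alternatives and the rule for the reference cluster (H3K27ac in both kinds of tumour cell and the longest H3K4me3 of the controls) were chosen after seeing the data.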

Additional observations from a re-analysis of the deposited data

How the results depend on the processing

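Of 88 values under the alternatives, 55 stayed within 1.5 times the main count and 33 did not. With windows wider by 50 kb on each side, H3K27me3 in the controls had 3 regions in place of 1 and stayed at 0 in the knockout. Under the same alternative H3K27ac in the controls had 11, and H3K4me3 21 in the controls and 20 in the knockout. The Suz12F1 list then had 1 Cas9 antibody region, and both Gfi1 lists had 32. Over the 4 wider windows, 17 control and 19 knockout H3K4me3 peaks were called in both kinds of cell, and 10 and 10 H3K27ac peaks. The wider Ezh1 window alone had 11 H3K4me3 and 5 H3K27ac peaks of the knockout. In the upper 50% of scores, H3K27ac numbered 3 in the controls and 3 in the knockout, H3K4me3 7 and 7, U6 regions 2 and Gfi1 regions of the Cas9 list 8. Called in both were then 7 H3K4me3 peaks of the knockout, and 3 H3K27ac peaks of each kind of cell. The Ezh1 window kept 3 H3K4me3 and 0 H3K27ac peaks of the knockout. With equal numbers by score, that window kept 1 H3K27ac peak, the one on the Ramp2 side and not that at the reference cluster of Ezh1. The H3K27me3 region of the controls was then lost, giving 0, and U6 kept 2 regions. Without regions that overlap a Cas9 antibody region, H3K27me3 had 0, H3K4me3 in the controls 7, H3K27ac 3 in each kind of cell and 2 called in both from either side. Joining peaks within 500 bp gave 10 clusters and within 2 kb 8, against 9. Depth is unknown for every list.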
